A study of Mus musculus with 9 samples.

Results

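The 10 genes described here encode established negative regulators of Toll-like receptor (TLR) signalling, namely Irak3, Tollip, Sigirr, Tnip1, Pdlim2, Cd300lf, Cd300a, Ptpn6, Cyld and Inpp5d. They were taken by gene name from both deposited tables, and each name had 1 row, so that the set held 10 of the 46072 genes in the tables. A total of 26108 genes were detected in 1 library or more, all 10 among them, and all 10 received an adjusted p in every contrast, so none was lost to a filter on low values. The genes were measured by RNA sequencing of splenic monocytes, in 9 libraries that the labels place in 3 groups of 3. The mice were female C57BL/6 animals of 8 to 10 weeks, and the monocytes were enriched by negative selection and received no stimulation in culture. Con mice received water by oral gavage for 6 days, and Van mice received vancomycin by the same route and for the same time, at a total of 2 mg for each mouse on each day. VanLip mice received that vancomycin course and then L654, a serine-glycine lipid of Bacteroidota that is recognised through TLR2, by retro-orbital injection on days 7, 9 and 11. Spleens were taken after a rest without gavage, given as 6 to 8 days in the labels and as 8 days in the study's account of these 3 groups. No group received L654 alone, so L654 was examined only on top of vancomycin, and nothing in the labels says whether a library came from a single spleen. The study's account of these 3 groups mentions an injection for VanLip only and does not state whether Con and Van mice received vehicle. If they did not, L654 and the injection itself cannot be told apart. The p-values below measure the spread between these libraries.

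TLRs are receptors for microbial products. On ligand binding most of them recruit the adaptor MyD88 and the kinases of the IRAK family, the ubiquitin ligase TRAF6 then builds ubiquitin chains, and the chains activate the kinase complexes that release NF-κB to the nucleus. The 10 genes act at successive points of that route. Sigirr and the inhibitory receptors Cd300a and Cd300lf sit in the cell membrane, Ptpn6 and Inpp5d encode the phosphatases SHP-1 and SHIP-1 that such receptors recruit, Irak3 and Tollip act at the IRAK step, Cyld and Tnip1 act on or through ubiquitin chains, and Pdlim2 promotes degradation of the NF-κB subunit p65 in the nucleus.

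The VanLip libraries stood apart from the others in depth and in the size of 1 read. Total expected counts per library ranged from 43070361 to 61383806 in Con and Van and from 170503470 to 184720704 in VanLip, and the low count seen most often was 1.33 in all Con and Van libraries against 2.00 in all VanLip libraries, values that correspond to reads of 100 and 150 bases if the counts were made in the default way of tximport. The methods of the study give a single read length for the series, so the second length is read from the counts alone. The size of 1 read, depth and VanLip group therefore cannot be told apart, and each VanLip value below carries that limit. All 8 monocyte markers listed were found. Their summed FPKM (fragments counted per kilobase of a transcript and relative to the fragments mapped in the library) was 10650 to 11220 in Con, 9499 to 10930 in Van and 10740 to 12070 in VanLip. Most of that sum was Lyz2, with group means of 8013, 7514 and 8238 FPKM. The sum thus follows that gene and is not a check of the monocyte label. Summed over 4 markers each, B cell genes stayed between 8.31 and 12.3 FPKM and T cell genes between 1.80 and 2.79 FPKM, and the neutrophil marker Ly6g was listed at 0 in every library. NK cell, neutrophil, dendritic cell and platelet markers summed to 3.21 to 6.27, 1.88 to 10.8, 12.2 to 18.2 and 3.92 to 19.4 FPKM over all libraries. Of the 4 dendritic cell markers, Xcr1 (log2 fold change -0.85, DESeq2 adjusted p of 0.00897) and Clec9a (-1.12, DESeq2 adjusted p of 1.55e-05) were lower in Van than in Con. Flt3, the highest of the 4 in FPKM, lay on the other side of 0 (0.25, DESeq2 adjusted p of 0.608). Zbtb46 was not called either (-0.18, DESeq2 adjusted p of 0.787). Xcr1 was also lower in VanLip than in Con (-0.73, DESeq2 adjusted p of 0.0189), and Clec9a was higher in VanLip than in Van (0.67, DESeq2 adjusted p of 0.0172). The neutrophil marker Ngp was lower in VanLip than in Con (-1.94, DESeq2 adjusted p of 0.0388). The 4 erythroid markers summed to 56.8 to 114.4 FPKM in Con, 188.8 to 429.5 in Van and 154.9 to 639.6 in VanLip, and 3 of the 4 were called higher for Van against Con and all 4 for VanLip against Con. The summed red pulp macrophage markers (5 genes) were 1085 to 1290 FPKM in Con, 1264 to 1721 in Van and 1067 to 1374 in VanLip, and 1 of the 5, Vcam1, was called higher in Van than in Con (0.46, DESeq2 adjusted p of 0.0106). For VanLip against Van Vcam1 was called lower (-0.50, DESeq2 adjusted p of 0.00186). Of the monocyte markers, 3 of 8 (Ccr2, Ly6c2 and Cx3cr1) were called higher for VanLip against Van. The rest were not called, with log2 fold changes of -0.16 for Nr4a1, -0.10 for Csf1r, -0.02 for Cd68, 0.13 for Lyz2 and 0.20 for Itgam. In that contrast 9.2% of all genes with an adjusted p were called in either direction. The chemokine receptor gene Ccr2 was lower in Van than in Con (log2 fold change -0.83, DESeq2 adjusted p of 0.00048) and higher in VanLip than in Van (1.04, DESeq2 adjusted p of 7.78e-07). In bulk RNA, fewer cells of a type and less RNA per cell cannot be told apart.

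The 10 genes covered a wide range of levels per transcript length. Ptpn6 was highest, with a mean of 246.7 FPKM over the 9 libraries, at percentile 99.0 of the detected genes. Cd300a followed at 117.1 FPKM, Inpp5d at 83.2 FPKM and Tnip1 at 42.3 FPKM, and each of these exceeded the next gene in 9 of 9 libraries. These 4 genes were thus abundant transcripts of the monocyte samples, and the 3 highest all belong to the arm of inhibitory receptors and their phosphatases.

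The next 4 genes lay close together, with Tollip at 19.9 FPKM, Cd300lf at 18.8 FPKM, Irak3 at 17.2 FPKM and Pdlim2 at 17.0 FPKM. Their order was not fixed, as Tollip exceeded Cd300lf in 7 of 9 libraries, Cd300lf exceeded Irak3 in 7 and Irak3 exceeded Pdlim2 in 5. Cyld had a mean of 12.2 FPKM and was below Pdlim2 in 9 of 9 libraries. Sigirr was lowest, at 2.49 FPKM and percentile 63.1, and was below Cyld in 9 of 9 libraries. Its mean normalized count of 472 was also the lowest of the set, and it had the largest spread over the 9 libraries, with a coefficient of variation of 19.6% against 4.38% for Tollip, which had the smallest.

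**Figure D1:**
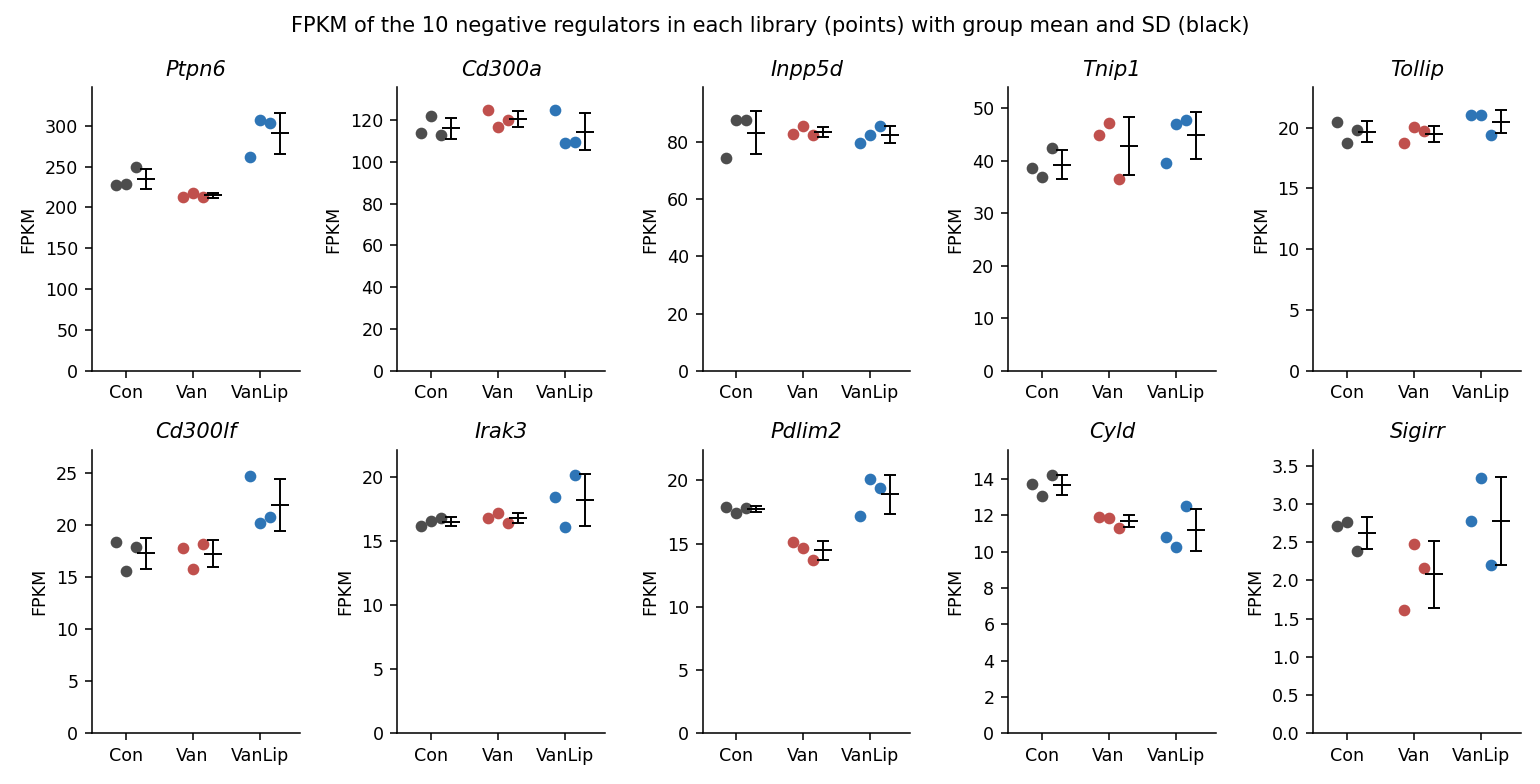
FPKM of each of the 10 genes (vertical axes from 0, a scale for each gene) in the 3 libraries of Con, Van and VanLip, with each library as a point and the group mean and SD in black, ordered by mean level. The VanLip points of Ptpn6 and Cd300lf lie above all others, the Van points of Pdlim2 lie below all others, and the Con points of Cyld lie above all others.

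Differences between groups were tested with DESeq2 on the expected counts of all genes, and calls were made where the adjusted p did not exceed 0.05. In the likelihood-ratio test for any difference among the 3 groups, 4 of the 10 genes were called, where 11.8% of all genes tested were called. The 10 genes were chosen with earlier results of these data known, and their levels lay at percentiles 63.1 to 99.0 of the detected genes. Their share and that of all genes are therefore not on equal terms, here or in the contrasts below. The count was lower with edgeR and with limma, as given in the closing section. Ptpn6 had the lowest adjusted p of that test (1.47e-07), followed by Pdlim2 (0.000866), Cyld (0.0107) and Cd300lf (0.0172). The other 6 genes had DESeq2 adjusted p from 0.325 for Sigirr to 0.884 for Cd300a. The 4 genes did not share a pattern. Pdlim2 was low in Van, Ptpn6 and Cd300lf were high in VanLip, and Cyld was high in Con.

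For Van against Con, 1 of the 10 genes was called, Pdlim2, which was lower in Van, against 4.34% of all genes tested. Unadjusted p was under 0.05 in 3 genes, and in 4 genes (Irak3, Pdlim2, Ptpn6 and Cyld) the normalized counts of the groups did not overlap, where 20.8% of all genes had no overlap. For VanLip against Con, 3 genes were called, Cd300lf and Ptpn6 higher and Cyld lower in VanLip, against 6.23% of all genes, and the same 3 genes did not overlap, against 23.1% of all genes. For VanLip against Van, 3 genes were called, all higher in VanLip, namely Pdlim2, Cd300lf and Ptpn6, against 9.2% of all genes. In that contrast 4 genes (Pdlim2, Cd300lf, Ptpn6 and Inpp5d) did not overlap, against 25.4% of all genes. Unadjusted p was under 0.05 in 4 genes in each of the VanLip contrasts. The 3 contrasts share their libraries in pairs and are not independent of each other. The median log2 fold change of the 10 genes was -0.04 (Van against Con), 0.07 (VanLip against Con) and 0.07 (VanLip against Van), compared with -0.01, 0.01 and 0.01 over all genes tested. At least 7 of the 10 genes were not called in each contrast.

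**Figure D2:**
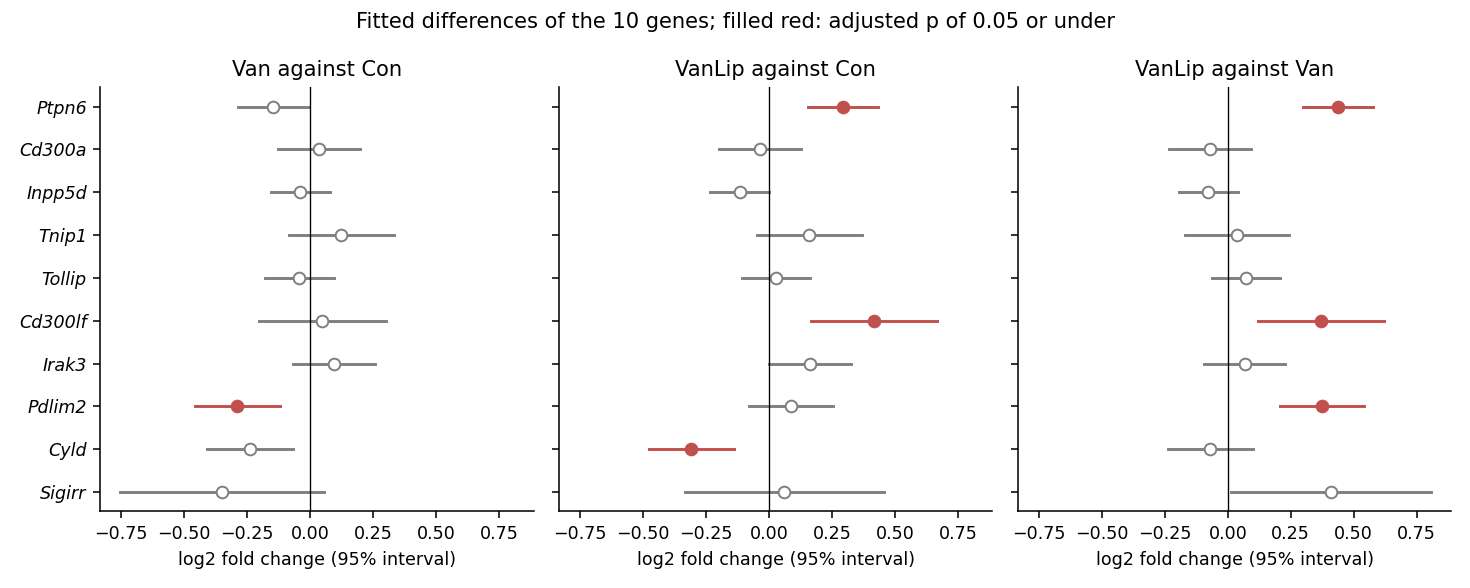
Fitted log2 fold change (horizontal axis, DESeq2) of each of the 10 genes with its 95% interval in each of the 3 contrasts, with called genes in filled red. Pdlim2 is left of 0 for Van against Con, Cyld is left and Cd300lf and Ptpn6 are right of 0 for VanLip against Con, and Pdlim2, Cd300lf and Ptpn6 are right of 0 for VanLip against Van.

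The difference with the lowest adjusted p belonged to a phosphatase gene. Ptpn6 (ENSMUSG00000004266, GRCm38 chromosome 6, 124720707 to 124738714, minus strand) encodes SHP-1, the tyrosine phosphatase that binds phosphorylated inhibitory motifs (ITIMs) in the tails of inhibitory receptors. Its FPKM was 227, 228.7 and 248.8 in the Con libraries, 212.7, 218.1 and 213.1 in the Van libraries, and 261.2, 307.2 and 303.4 in the VanLip libraries. Every VanLip library was above every Con library, and every Con library was above every Van library, with Van the tightest group. Its normalized count was 49570 ± 1856 in Con, 44800 ± 68.4 in Van and 60750 ± 4749 in VanLip (mean ± SD, n = 3 each).

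Ptpn6 was higher in VanLip than in Van by a log2 fold change of 0.44 (standard error 0.07), a fold of 1.36, with a DESeq2 adjusted p of 6.97e-08. It was also higher in VanLip than in Con, by 0.29 (standard error 0.07) and a fold of 1.23, with a DESeq2 adjusted p of 0.00185. The Van against Con value was -0.15 with a 95% interval from -0.29 to -0.01 and did not pass the test (DESeq2 adjusted p of 0.298), although the groups did not overlap. The VanLip against Van difference was called under each of the 19 alternatives tried, with adjusted p up to 0.0399, and with fragments thinned to the depth of the lowest library it was 0.45. The VanLip against Con difference was not called by the edgeR quasi-likelihood test (adjusted p of 0.0507) or by any of the 3 limma fits to FPKM (adjusted p from 0.118 to 0.208). The annotation places a gene model, Gm20531, over Ptpn6 on the opposite strand, and the counting is not stated to use strand. The erythroid markers were also higher and Xcr1 and Ngp lower in VanLip than in Con. In VanLip against Van, 3 of the 8 monocyte markers and Clec9a were called higher and Vcam1 was called lower. The same markers moved with Cd300lf below, and their part in the Ptpn6 and Cd300lf values was not tested.

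Inpp5d (ENSMUSG00000026288, chromosome 1, 87620312 to 87720507, plus strand) encodes SHIP-1, a lipid phosphatase that removes a phosphate from the product of PI 3-kinase and is largely restricted to blood cells. Its FPKM was 74.5, 87.9 and 87.7 in Con, 82.9, 85.6 and 82.4 in Van, and 79.6, 82.6 and 85.6 in VanLip. All Van and VanLip libraries lay within the range of the Con libraries, while on the scale of normalized counts the VanLip libraries (30490 to 32500) lay below the Van libraries (33070 to 33790). Its log2 fold change was -0.04 in Van against Con (95% interval -0.16 to 0.08), -0.12 in VanLip against Con (-0.23 to 0.0004) and -0.08 in VanLip against Van (-0.19 to 0.04), with DESeq2 adjusted p of 0.887, 0.279 and 0.524. The FPKM ratio of Ptpn6 to Inpp5d was 2.83 ± 0.223 in Con, 2.57 ± 0.0198 in Van and 3.52 ± 0.219 in VanLip (mean ± SD, n = 3 each). The 3 VanLip ratios, from 3.28 to 3.72, were above the 6 others, which ran from 2.55 to 3.05.

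A relative of Ptpn6 was measured too. Ptpn11, which encodes SHP-2, the close relative of SHP-1, had FPKM of 23.9, 23.3 and 26.5 in Con, 22.3, 21.9 and 19.5 in Van and 26.7, 30.4 and 30.2 in VanLip. Every VanLip library was above every other library, and every Van library was below every other library, as for Ptpn6. Ptpn11 was called higher for VanLip against Van (log2 fold change 0.45, standard error 0.08, DESeq2 adjusted p of 3.51e-06). The FPKM ratio of Ptpn6 to Ptpn11 was 9.57 ± 0.234 in Con, 10.2 ± 0.720 in Van and 9.98 ± 0.166 in VanLip (mean ± SD, n = 3 each), so the ratio differed between groups by less than the spread within Van.

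Both Cd300 genes of the set lie in 1 gene cluster on chromosome 11, in which 11 Cd300 genes span 244.0 kb, with 226.2 kb between the starts of Cd300a and Cd300lf. Cd300 receptors bind lipids of the cell surface, and Cd300a and Cd300lf carry ITIMs in their tails. Cd300lf (ENSMUSG00000047798, 115116214 to 115133992, minus strand) had FPKM of 18.3, 15.6 and 17.9 in Con, 17.8, 15.8 and 18.2 in Van, and 24.7, 20.2 and 20.7 in VanLip. The Van libraries lay within the range of the Con libraries, and the 3 VanLip libraries were above all 6 of them, with VanLip replicate 1 the highest. The normalized count was 3548 ± 347 in Con, 3668 ± 285 in Van and 4737 ± 771 in VanLip (mean ± SD, n = 3 each).

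Cd300lf was higher in VanLip than in Con by a log2 fold change of 0.42 (standard error 0.13, DESeq2 adjusted p of 0.0244) and higher in VanLip than in Van by 0.37 (standard error 0.13, DESeq2 adjusted p of 0.0447). The Van against Con value was 0.05 (95% interval from -0.20 to 0.30, DESeq2 adjusted p of 0.949). The calls depended on VanLip replicate 1, without which the log2 fold changes were 0.28 and 0.23 with adjusted p of 0.128 and 0.21. They were also lost with fragments thinned to the lowest library (adjusted p of 0.0847 and 0.124), with edgeR (0.104 and 0.1) and with limma on log2(FPKM + 1) (0.25 and 0.18). The VanLip against Con call was further lost without Con replicate 2 (0.167) or Con replicate 3 (0.074). The VanLip against Van call was further lost without Con replicate 3 (0.0666), Van replicate 1 (0.0755), Van replicate 2 (0.233) or Van replicate 3 (0.0771). In all, the calls held under 11 and 7 of the 19 alternatives. Rab37 overlaps Cd300lf on the opposite strand, and neighbouring Cd300 genes resemble each other in sequence, so reads could be exchanged.

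Cd300a (ENSMUSG00000034652, 114890041 to 114904654, plus strand) had FPKM of 114.1, 121.9 and 112.7 in Con, 124.7, 116.6 and 120.3 in Van, and 124.8, 109.1 and 109.8 in VanLip. The 3 groups overlapped, and no difference was called, with log2 fold changes of 0.03 (Van against Con), -0.04 (VanLip against Con) and -0.07 (VanLip against Van) and DESeq2 adjusted p of 0.945, 0.894 and 0.734. The 95% intervals of these 3 values ran from -0.23 at the lowest to 0.20 at the highest. The FPKM ratio of Cd300a to Cd300lf was 6.79 ± 0.908 in Con, 7.01 ± 0.390 in Van and 5.25 ± 0.184 in VanLip (mean ± SD, n = 3 each).

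All 9 other genes of the cluster had a value when matched by gene ID, and 1 of them was called. AF251705 (Cd300c2 in the annotation), Cd300e, Cd300ld and Cd300lh had group means of 126.8 to 129.2, 104.2 to 108.6, 86.3 to 93.4 and 76.9 to 90.1 FPKM. Gm11711, Gm11710, Cd300lb and Cd300c had 51.7 to 67.5, 28.5 to 43.1, 43.7 to 49.9 and 0.779 to 1.52 FPKM. Gm11709 (Cd300ld2 in the annotation) was lower in VanLip than in Con (log2 fold change -0.82, DESeq2 adjusted p of 0.0375), the direction opposite to that of Cd300lf. Its group means were 13.4 FPKM in Con, 10.2 in Van and 4.73 in VanLip, a log2 ratio of -1.51 for VanLip to Con, so the difference was larger in FPKM than in counts, and the call was lost with edgeR (adjusted p of 0.153). These neighbours could share reads with each other, and the size of 1 read differed in VanLip, so the level of each is uncertain.

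Promoter sequences are shown for the 3 genes of the receptor and phosphatase arm whose promoter held the letters AGGAAGT on either strand, a core bound by ETS-family factors such as PU.1, because Ptpn6 and Cd300lf were both called higher in VanLip and Inpp5d was not. Each sequence covers 250 bases before and 50 bases after the gene start in RefSeq on GRCm38.p6, on the strand of the gene, and capitals mark the letters AGGAAGT or their reverse complement.
Ptpn6, chr6:124738660-124738959, minus strand: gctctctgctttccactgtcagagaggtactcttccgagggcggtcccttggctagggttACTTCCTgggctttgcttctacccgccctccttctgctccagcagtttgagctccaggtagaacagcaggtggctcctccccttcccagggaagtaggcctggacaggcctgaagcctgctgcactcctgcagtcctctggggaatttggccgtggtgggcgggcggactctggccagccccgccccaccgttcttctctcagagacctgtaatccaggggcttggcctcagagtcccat
Cd300lf, chr11:115133943-115134242, minus strand: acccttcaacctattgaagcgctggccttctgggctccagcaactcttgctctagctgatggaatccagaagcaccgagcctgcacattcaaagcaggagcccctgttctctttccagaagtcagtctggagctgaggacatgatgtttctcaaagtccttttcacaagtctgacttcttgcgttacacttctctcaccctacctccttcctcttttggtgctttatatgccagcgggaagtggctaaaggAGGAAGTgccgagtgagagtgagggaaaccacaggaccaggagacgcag
Inpp5d, chr1:87620062-87620361, plus strand: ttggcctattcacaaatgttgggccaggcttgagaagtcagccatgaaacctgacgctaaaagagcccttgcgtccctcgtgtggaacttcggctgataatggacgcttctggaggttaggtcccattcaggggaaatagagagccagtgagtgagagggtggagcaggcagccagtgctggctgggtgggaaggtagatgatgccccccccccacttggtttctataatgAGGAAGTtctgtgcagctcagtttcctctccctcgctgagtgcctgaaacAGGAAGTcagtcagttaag
Ptpn6 held 1 match, Cd300lf 1 and Inpp5d 2, and of all 32851 RefSeq promoters of the same length 9.35% held at least 1. The NF-κB motif was searched on both strands as well and was matched in the promoters of Tnip1 (3 matches), Cd300a (1) and Cyld (1), and in 8.46% of all promoters. The ETS letters were chosen after the letters and the results were seen, and a match is a description of the letters only. The 3 promoters shown were picked for holding these letters, so they cannot tell whether the letters go with a call. Promoters were found for 8 of the 10 genes, and the other 5 of those 8, among them Cyld, which was called, held no ETS match. The count of CpG dinucleotides ran from 1 for Cd300a to 26 for 1 of the 2 promoters of Irak3, against a median of 7 over all promoters.

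Sigirr (ENSMUSG00000025494, chromosome 7, 141091175 to 141100572, minus strand) encodes a membrane receptor of the interleukin-1 receptor family that dampens TLR and interleukin-1 signals. Its FPKM was 2.71, 2.77 and 2.39 in Con, 1.61, 2.48 and 2.16 in Van, and 2.78, 3.35 and 2.203 in VanLip. The groups overlapped, and Van replicate 1 was the lowest library and VanLip replicate 2 the highest. Its log2 fold change was -0.35 in Van against Con (95% interval -0.75 to 0.06, DESeq2 adjusted p of 0.456) and 0.06 in VanLip against Con (-0.34 to 0.46, DESeq2 adjusted p of 0.934). In VanLip against Van it was 0.41 (0.01 to 0.81, DESeq2 adjusted p of 0.226), with a standard error of 0.20. Without Van replicate 1 the Van against Con value was -0.20. The VanLip against Van value was 0.26 without Van replicate 1 or without VanLip replicate 2, and up to 0.55 without another library.

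Irak3 (ENSMUSG00000020227, chromosome 10, 120141648 to 120202130, minus strand) encodes IRAK-M, a member of the IRAK family that holds back the active kinases and is characteristic of monocytes and macrophages. Its FPKM was 16.2, 16.6 and 16.8 in Con, 16.8, 17.2 and 16.4 in Van, and 18.4, 16.1 and 20.1 in VanLip. In FPKM Con and Van were tight and close, and VanLip was spread around them, with replicate 2 the lowest and replicate 3 the highest of all 9 libraries. In normalized counts the lowest was Con replicate 1 (4228) and the highest VanLip replicate 1 (5230). On that scale the Van libraries (4537 to 4646) lay above the Con libraries (4228 to 4390). Its log2 fold change was 0.09 (Van against Con), 0.16 (VanLip against Con) and 0.07 (VanLip against Van), with DESeq2 adjusted p of 0.708, 0.274 and 0.743. Without VanLip replicate 2 the VanLip against Con value was 0.23 and was called (adjusted p of 0.0283). Tmbim4 and Gm47009 overlap Irak3 on the opposite strand.

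The kinases that Irak3 restrains were not called. Irak1 had mean FPKM of 40.1 ± 1.66 in Con, 36.9 ± 1.25 in Van and 38.9 ± 0.631 in VanLip (mean ± SD, n = 3 each), and Irak4 had 26.5 ± 1.44, 29.4 ± 0.299 and 28.3 ± 2.39 in the same order. Their lowest DESeq2 adjusted p over the 3 contrasts was 0.367, although the Van libraries were below the Con libraries in Irak1 and above them in Irak4. The FPKM ratio of Irak3 to Irak1 was 0.412 ± 0.0185 in Con, 0.456 ± 0.0251 in Van and 0.468 ± 0.0495 in VanLip (mean ± SD, n = 3 each), and the range of VanLip overlapped that of Con while all Van ratios were above those of Con. The ratio of Irak3 to Irak4 moved the other way in Van, at 0.623 ± 0.0231 in Con, 0.5705 ± 0.0148 in Van and 0.646 ± 0.0892 in VanLip (mean ± SD, n = 3 each), with all Van ratios below those of Con. Irak3 transcript was below Irak1 transcript, per length, in all 9 libraries.

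Tollip (ENSMUSG00000025139, chromosome 7, 141874813 to 141918507, minus strand) encodes an adaptor that binds IRAK-1 and ubiquitin, and lies 774.2 kb from Sigirr. Its FPKM was 20.5, 18.7 and 19.8 in Con, 18.7, 20.1 and 19.7 in Van, and 21.1, 21.1 and 19.4 in VanLip. The libraries of the 3 groups interleaved, and this was the steadiest gene of the set over the 9 libraries. Its log2 fold change was -0.04 (Van against Con), 0.03 (VanLip against Con) and 0.07 (VanLip against Van), with DESeq2 adjusted p of 0.893, 0.901 and 0.639. Their 95% intervals together ran from -0.18 to 0.21.

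Cyld (ENSMUSG00000036712, chromosome 8, 88697028 to 88751945, plus strand) encodes a deubiquitinase that removes the ubiquitin chains on which NF-κB activation is built. Its FPKM was 13.7, 13.1 and 14.2 in Con, 11.9, 11.8 and 11.3 in Van, and 10.8, 10.3 and 12.5 in VanLip. Every Con library was above every Van and every VanLip library, and Van and VanLip overlapped each other. The normalized count was 10450 ± 348 in Con, 8852 ± 273 in Van and 8436 ± 899 in VanLip (mean ± SD, n = 3 each).

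Cyld was lower in VanLip than in Con by a log2 fold change of -0.31 (standard error 0.09, DESeq2 adjusted p of 0.0102). For Van against Con it was -0.24 (standard error 0.09) and did not pass the test (DESeq2 adjusted p of 0.0941), and for VanLip against Van it was -0.07 (95% interval from -0.24 to 0.10, DESeq2 adjusted p of 0.751). The Van against Con value passed when only the Con and Van libraries were fitted (adjusted p of 0.006), without VanLip replicate 2 (0.0289) and without VanLip replicate 3 (0.0121). The VanLip against Con call was lost without Con replicate 1 (adjusted p of 0.0775), Con replicate 3 (0.083) or VanLip replicate 2 (0.0733), with edgeR (0.0821) and with each limma fit (0.0929 to 0.172). The erythroid markers were higher and Xcr1 was lower in both Van and VanLip than in Con, and their part in the Cyld values was not tested. Gm17910 and Gm17995 overlap Cyld on the opposite strand.

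Tnip1 (ENSMUSG00000020400, chromosome 11, 54910785 to 54962917, minus strand) encodes a ubiquitin-binding partner of the deubiquitinase encoded by Tnfaip3. Its FPKM was 38.5, 36.9 and 42.3 in Con, 44.8, 47.1 and 36.5 in Van, and 39.6, 47.0 and 47.8 in VanLip. The lowest library of the 9 was Van replicate 3 and the highest was VanLip replicate 3, and all groups overlapped. Its log2 fold change was 0.12 (Van against Con), 0.16 (VanLip against Con) and 0.04 (VanLip against Van), with DESeq2 adjusted p of 0.696, 0.457 and 0.921.

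Tnfaip3, the partner of Tnip1, was measured at 131.6, 68.7 and 94.3 FPKM in Con, 125.6, 113.3 and 78.5 in Van, and 81.2, 83.8 and 70.9 in VanLip. Its Con libraries held both the highest and the lowest of the 9 values, and no contrast called it (DESeq2 adjusted p from 0.322 to 0.988). The FPKM ratio of Tnip1 to Tnfaip3 was 0.426 ± 0.124 in Con, 0.412 ± 0.0540 in Van and 0.574 ± 0.0938 in VanLip (mean ± SD, n = 3 each), with overlap between VanLip and Con while all VanLip ratios were above those of Van.

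Pdlim2 (ENSMUSG00000022090, chromosome 14, 70164218 to 70177681, minus strand) encodes a nuclear ubiquitin ligase that ends NF-κB activity by marking p65 for degradation. Its FPKM was 17.9, 17.4 and 17.8 in Con, 15.1, 14.6 and 13.7 in Van, and 17.2, 20.1 and 19.4 in VanLip. Every Van library was below every Con and every VanLip library, and VanLip replicate 1 lay below the Con libraries while the other two lay above them. The normalized count was 2635 ± 42.9 in Con, 2156 ± 114 in Van and 2798 ± 210 in VanLip (mean ± SD, n = 3 each).

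Pdlim2 was lower in Van than in Con by a log2 fold change of -0.29 (standard error 0.09, DESeq2 adjusted p of 0.0266). It was higher in VanLip than in Van by 0.38 (standard error 0.09, DESeq2 adjusted p of 0.000407), and the VanLip against Con value was 0.09 (95% interval from -0.08 to 0.25, DESeq2 adjusted p of 0.675). The first of these calls was lost with edgeR (adjusted p of 0.103), with the replicate number as a block (0.111) and with each limma fit (0.101 to 0.178). It was also lost without Con replicate 1 (0.144), Con replicate 2 (0.111), Con replicate 3 (0.111), Van replicate 2 (0.168) or Van replicate 3 (0.198). The VanLip against Van call was lost under 1 of 19 alternatives, limma on log2(FPKM + 0.1), at an adjusted p of 0.0577. Ccr2 and Clec9a were called in the same direction as Pdlim2 in both contrasts and Vcam1 in the opposite direction in both. For Van against Con, Xcr1 was also called lower and 3 of 4 erythroid markers higher. Ly6c2 and Cx3cr1 were also called higher for VanLip against Van. The part of the cell makeup in the Pdlim2 values was not tested. The target of Pdlim2, Rela (p65), had 40.6 ± 3.00 FPKM in Con, 42.0 ± 3.07 in Van and 42.7 ± 1.36 in VanLip (mean ± SD, n = 3 each), and no contrast called it (DESeq2 adjusted p of 0.84 or above).

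**Figure D3:**
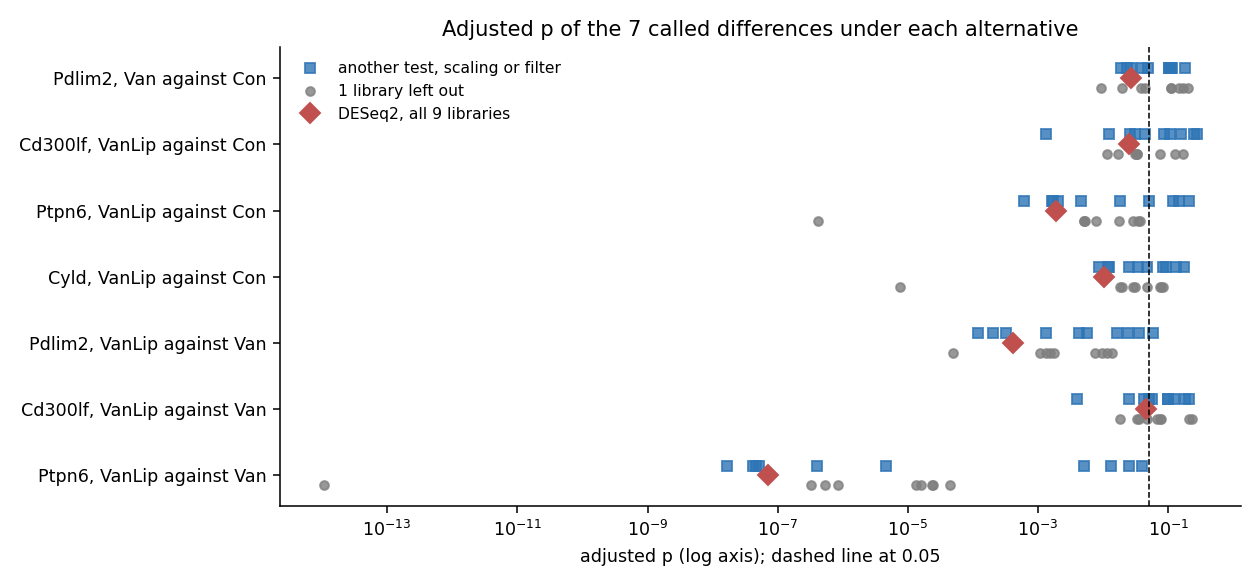
Adjusted p (log axis) of the 7 called differences of Pdlim2, Cd300lf, Ptpn6 and Cyld, with the DESeq2 value on all 9 libraries as a red diamond, 10 fits with another test, scaling or filter as blue squares and 9 fits that leave out 1 library as grey points, and a dashed line at 0.05. All points of Ptpn6 for VanLip against Van lie left of the line, and each of the other 6 differences has at least 1 point right of it.

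The genes whose pattern was most like those of the 3 members with the lowest likelihood-ratio p were sought among the 10845 named genes whose mean normalized count reached 100. Pearson r of log2 normalized counts over the 9 libraries is given as a description, and the libraries share group, depth and read length. Nearest to Ptpn6 were Clec2i (r = 0.97), Degs1 (0.96) and Ptpn22 (0.96), the last a tyrosine phosphatase of blood cells. Nearest to Pdlim2 were Cd180 (0.97), which encodes a TLR-like surface protein, Akap12 (0.97) and Megf9 (0.97). Nearest to Cyld were Atr (0.96), Cep192 (0.96) and Fam49a (0.95). Within the set, r over the same 9 libraries ran from -0.89 for Cd300lf and Inpp5d to 0.85 for Ptpn6 and Pdlim2 among the 45 pairs.

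Other genes of the pathway were counted by role, beside the 10. Of 16 receptors and co-receptors, 1 was called in Van against Con, 2 in VanLip against Con and 2 in VanLip against Van, and all of these were lower in the first-named group. Over all genes tested 4.34%, 6.23% and 9.2% were called in these contrasts. With so few calls, no direction is read for the list as a whole. Unc93b1, which carries the nucleic acid receptors to the endosome, was lower in Van than in Con (log2 fold change -0.27, DESeq2 adjusted p of 0.0408), a call lost with edgeR (adjusted p of 0.141). Tlr8 was lower in VanLip than in Con (-0.29, DESeq2 adjusted p of 0.00976) and than in Van (-0.43, DESeq2 adjusted p of 5.43e-06). Tlr11 was lower in VanLip than in Con (-0.91, DESeq2 adjusted p of 9.02e-05). Tlr13 was lower in VanLip than in Van (-0.22, DESeq2 adjusted p of 0.0337). With edgeR the calls of Tlr8 against Con (adjusted p of 0.0838) and of Tlr13 (0.0948) were lost. Tlr2, the receptor for L654, had 56.0 ± 13.6 FPKM in Con, 61.1 ± 5.29 in Van and 56.5 ± 12.0 in VanLip (mean ± SD, n = 3 each) and no contrast called it (DESeq2 adjusted p of 0.808 or above).

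Of 31 adaptors, kinases and ubiquitin enzymes, Van against Con called 1 higher and 1 lower, VanLip against Con 1 higher and 1 lower, and VanLip against Van 3 higher and 1 lower. The shares called over all genes tested were 4.34%, 6.23% and 9.2% in that order. Ikbkg, the ubiquitin-binding subunit of the kinase complex that frees NF-κB, had FPKM of 7.35, 8.39 and 9.02 in Con, 6.19, 6.38 and 6.47 in Van and 7.82, 7.91 and 8.09 in VanLip. It was low in Van as Pdlim2 was, with log2 fold changes of -0.25 for Van against Con (DESeq2 adjusted p of 0.0204) and 0.23 for VanLip against Van (DESeq2 adjusted p of 0.0206), and both calls were lost with edgeR (adjusted p of 0.103 and 0.0607). Mapk14, the p38 kinase, was higher in Van than in Con (0.18, DESeq2 adjusted p of 0.0195) but fell from Van to VanLip (-0.24, DESeq2 adjusted p of 0.000135). Myd88 (0.28) and Tab1 (0.41) were higher in VanLip than in Van, with DESeq2 adjusted p of 0.00662 and 0.000354. Tab1 was also higher (0.33) and the NF-κB subunit gene Rel lower (-0.68) in VanLip than in Con, with DESeq2 adjusted p of 0.0115 and 0.00615. With edgeR these 2 calls (adjusted p of 0.0693 and 0.106) and that of Mapk14 for Van against Con (0.126) were lost. Traf6, the ubiquitin ligase whose chains Cyld removes, was called in none (DESeq2 adjusted p of 0.837 or above).

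Of 22 other inhibitors of TLR and NF-κB signalling, DESeq2 called 0 for Van against Con, where 3 had an unadjusted p under 0.05 and edgeR also called 0. For VanLip against Con 1 was higher and 1 lower, and for VanLip against Van 1 was higher and 2 lower. Beside these counts stand shares of 4.34%, 6.23% and 9.2% of all genes tested, with the contrasts in the same order. Socs3, an inducible feedback inhibitor of cytokine signalling, was higher in VanLip by 0.53 against Con (DESeq2 adjusted p of 0.000543) and by 0.54 against Van (DESeq2 adjusted p of 0.000248). Atf3, an inducible repressor of TLR target genes, was lower in VanLip by a log2 fold change of -0.61 against Con (DESeq2 adjusted p of 5.25e-08) and of -0.55 against Van (DESeq2 adjusted p of 1.06e-06). Nfkbia, the inhibitor that holds NF-κB in the cytoplasm, was lower in VanLip than in Van (-0.40, DESeq2 adjusted p of 0.0411), a call lost with edgeR (adjusted p of 0.124). The 2 calls of 22 for VanLip against Con went in opposite directions, and no direction is read for this list.

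Of 18 other ITIM receptors and relatives of the members, 16 were found under the names listed, and DESeq2 called 1 in Van against Con, 0 in VanLip against Con and 4 in VanLip against Van. In VanLip against Con 3 had an unadjusted p under 0.05, and edgeR also called 0. Among all genes tested DESeq2 called 4.34% in Van against Con, 6.23% in VanLip against Con and 9.2% in VanLip against Van. Pecam1, an adhesion receptor with ITIMs, had FPKM of 16.3, 12.6 and 15.8 in Con, 44.0, 31.2 and 24.2 in Van and 18.8, 23.9 and 23.2 in VanLip. It was higher in Van than in Con (log2 fold change 1.14, DESeq2 adjusted p of 1.88e-07), and VanLip was below Van (-0.61, DESeq2 adjusted p of 0.0138), a call lost with edgeR (adjusted p of 0.0967). Fcgr2b, the inhibitory IgG receptor and a partner of SHIP-1, was lower in VanLip than in Van (-0.52, DESeq2 adjusted p of 0.00161), where its phosphatase gene Inpp5d was not called.

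Of 12 inflammatory outputs of the pathway, DESeq2 called 0 in Van against Con, 0 in VanLip against Con and 1 in VanLip against Van, the chemokine gene Ccl4, which was lower in VanLip (-0.66, DESeq2 adjusted p of 0.0341). Unadjusted p was under 0.05 in 1, 3 and 3 of these genes, and edgeR called 0 in each contrast. Their median log2 fold change was -0.01, -0.26 and -0.18 in the same order, compared with -0.01, 0.01 and 0.01 over all genes tested. DESeq2 called 4.34%, 6.23% and 9.2% of all genes tested, again in that order.

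**Figure D4:**
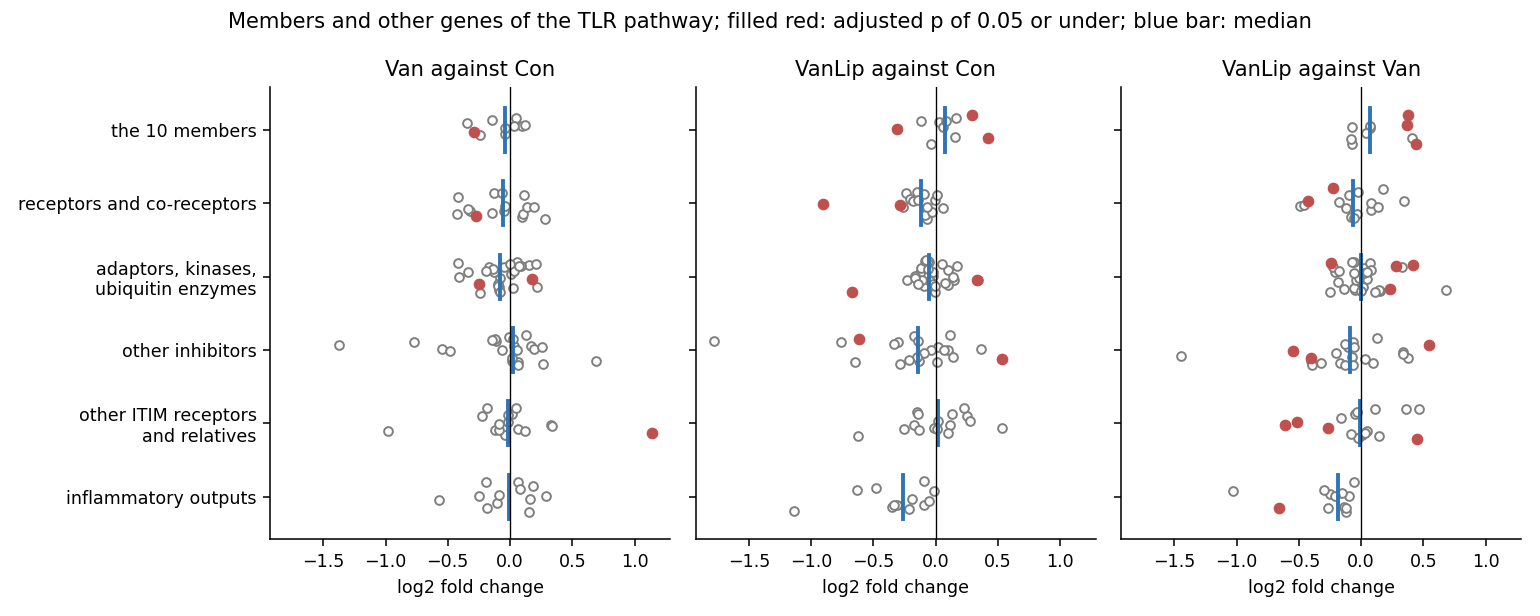
Log2 fold change (horizontal axis, DESeq2) of the 10 genes and of 5 lists of other pathway genes for each contrast, with 1 point for each gene, called genes in filled red and the median of each list as a blue bar. Most points lie near 0, and in the panel of VanLip against Van the called members are right of 0 and the called receptors and outputs left of it, with called genes of the other 3 lists on both sides.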

How the data were processed

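RNA was measured in 9 libraries. The authors aligned reads to GRCm38 with HISAT2 2.2.1 and deposited FPKM per gene, estimated with StringTie 2.1.3. A second table the authors deposited holds expected counts, obtained from StringTie with tximport and neither whole nor normalized. The annotation release is not given in the sources used here, and coordinates and overlaps were taken from GENCODE on GRCm38. Under the 75 bases that tximport assumes, low counts correspond to reads of 100 bases in Con and Van and of 150 bases in VanLip, although the study states a single read length.

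The titles of the samples gave groups and replicate numbers. Expected counts were rounded, and R 4.3.3 ran the Wald and likelihood-ratio tests of DESeq2 1.42.0, all 9 libraries in 1 fit, median-of-ratios size factors, default independent filtering, two-sided p and Benjamini-Hochberg adjustment over all genes. Normalized counts are expected counts divided by the size factors. The 19 alternatives used edgeR 4.0.16, limma 3.58.1 on quantile-normalized log2 FPKM, TMM library sizes, a filter of 10 counts in 3 libraries, only the 2 groups compared, a replicate block, fragments, thinned fragments, and each library left out in turn. The scripts were tested on simulated data with 200 changed genes. Named were all 10 members, called genes of the lists (1 of them is not reported here) and Tlr2, Irak1, Irak4, Traf6, Tnfaip3, Rela and Ikbkg. The relatives of the Cd300 cluster and the pairs set in ratios, the motif and Ccr2 were singled out after values were seen. The members and lists were chosen with earlier results of these data known.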

Additional observations from a re-analysis of the deposited data

How the results depend on the processing

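The count of called genes for Van against Con was 1 and became 0 with edgeR (2 genes at an unadjusted p under 0.05), 0 with the replicate block and 0 in the 3 limma fits on FPKM (3 genes at an unadjusted p under 0.05 in each), 2 when only the 2 groups compared were fitted, and 0 to 2 when 1 library was left out. For VanLip against Con it was 3 and became 0 with edgeR (4 genes at an unadjusted p under 0.05), 0 in the 3 limma fits (3 genes in each), 2 with thinned fragments (without Cd300lf), and 1 to 3 when 1 library was left out, the 1 being Ptpn6 without Con replicate 3. For VanLip against Van it was 3, became 1 with limma on log2(FPKM + 0.1), became 2 with edgeR, with only the 2 groups compared, with fragments, with thinned fragments and in the other limma fits, each time without Cd300lf, and was 2 to 3 when 1 library was left out. For any difference among the groups it was 4 and became 2 with edgeR, 1 with limma on log2(FPKM + 1), 0 with limma on log2(FPKM + 0.1), and 3 to 5 when 1 library was left out. The causes were not tested. The replicate numbers do not pair the libraries, as the correlation of same-numbered libraries ran from -0.065 to 0.123 over 13503 genes, and the replicate block moved no count other than that for Van against Con.

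Among the fold changes of single genes, 511 of the alternative values kept their direction and their side of the threshold, 42 lost a call, 4 gained one and 13 changed sign. The changes of sign were in values not called. Cd300lf for Van against Con was -0.02 in each limma fit (-0.0209, -0.0219 and -0.0209) and ran from -0.0268 to 0.11 when 1 library was left out. Leaving out 1 library also gave Cd300a from -0.0058 to 0.0744 for Van against Con and from -0.11 to 0.005 for VanLip against Con, Tollip from -0.0023 to 0.0712 and Sigirr from -0.0848 to 0.2031 for VanLip against Con, and Tnip1 from -0.051 to 0.12 for VanLip against Van. TMM library sizes moved the median of all genes by at most 0.0248 on the log2 scale.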
